A study of Mus musculus with 3 samples.

Results

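Collagens are the main structural proteins of the extracellular matrix, and each is built from 3 chains wound into a triple helix. The collagen chain genes of mouse brain vessels were taken as the genes whose symbol is Col, a type number, the letter a and a chain number, with nothing before or after. Of 29917 genes named in the expression tables, 42 had such a symbol, and each was represented by its transcript row with the largest summed count. At least 50 counts after scaling for depth were reached in at least 1 library by 41 of the 42, while Col10a1, a cartilage chain, stayed below this level with 10, 22 and 4 raw counts.

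In brain vessels, a sheet-like basement membrane lies under the endothelium and around pericytes and smooth muscle cells, and type IV collagen forms its network. Fibrillar collagens such as types I, III and V give tensile strength to the outer wall of larger vessels and to the meninges, where they are made mostly by fibroblasts. Other chains form beaded filaments next to the basement membrane (type VI), sit on the surface of fibrils (the FACIT collagens, fibril-associated collagens with interrupted triple helices), or stay anchored in the plasma membrane.

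RNA sequencing covered the polyadenylated RNA of brain vessels in 3 libraries, for each of which the vessels of 3 male mice aged 3 months had been pooled. The C57BL6 WT library came from wild-type mice of the C57BL6 strain. The C57BL6-BALB/c WT library came from wild-type mice of mixed C57BL6 and BALB/c background. The Cx30-/- library came from mice in which Cx30, an astroglial gap junction protein, was deleted in every tissue. The sample labels give a C57BL6 background for these mice, whereas the methods of the study give the mixed background. Deletion and background were therefore compared through both WT libraries. There was 1 library per group, so a ratio between libraries has no replicate check, and its 95% interval covers counting error only.

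The deposited counts summed to between 50375426 and 60725557 per library. Collagen chains took 0.294% of the gene counts in C57BL6 WT, 0.295% in C57BL6-BALB/c WT and 0.324% in Cx30-/-. Gjb6, which encodes Cx30, was at 101 normalized counts in the library with the deletion, against 2531 (C57BL6 WT) and 2426 (C57BL6-BALB/c WT). Normalized counts are counts scaled for depth by size factors (median of ratios). Wherever chains were compared with each other, these were also divided by the transcript length in kb, and such levels are given as per kb. Wherever 3 values are given without a library name, their order is C57BL6 WT, C57BL6-BALB/c WT and Cx30-/-.

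Markers of the cell types in the preparation also differed between the libraries. The summed level per kb of 10 endothelial markers was 42262 in C57BL6 WT, 23496 in C57BL6-BALB/c WT and 50438 in Cx30-/-, with Cldn5 and Slco1a4 highest. The corresponding sums were 24363, 19535 and 31090 for 10 fibroblast and meningeal markers, 23021, 14030 and 24166 for 9 pericyte markers, and 27901, 37192 and 34869 for 8 smooth muscle markers. For other cells, the sums were 8726, 8244 and 7477 for 7 astrocyte markers, 20206, 17110 and 16142 for 6 oligodendrocyte markers, 2692, 1761 and 2417 for 7 microglia and macrophage markers, 13621, 17001 and 10177 for 8 neuronal markers and 227809, 87827 and 118589 for 7 choroid plexus markers. The endothelial, pericyte and fibroblast sums were thus lowest in C57BL6-BALB/c WT and highest in Cx30-/-, an order that 10 of 10, 5 of 9 and 7 of 10 of their markers had by themselves. The choroid plexus and the microglia and macrophage sums were highest in C57BL6 WT and lowest in C57BL6-BALB/c WT, an order of 7 of 7 and 4 of 7 markers. Nearly all of the choroid plexus sum came from Ttr, with 224167, 86205 and 116231 per kb. The neuronal and the smooth muscle sums were highest in C57BL6-BALB/c WT, as were 5 of 8 neuronal and 5 of 8 smooth muscle markers. In bulk vessels, fewer cells of a type and less RNA per cell cannot be told apart. The part of these differences in the collagen values was not tested.

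The basement membrane chains Col4a1 and Col4a2 were among the 3 highest collagen levels in each library, with Col6a1. Together, Col4a1 and Col4a2 held 31.0% of the summed collagen level per kb in C57BL6 WT, 30.8% in C57BL6-BALB/c WT and 30.6% in Cx30-/-. Between Cx30-/- and the WT libraries, 2 chains were at least 2-fold higher against each WT library, Col5a3 of the fibril-regulating type V and Col6a6 of the beaded filament type VI. This was 4.88% of the 41 chains, with 0.742% of 14688 genes. None of the 41 chains was past 2-fold downward in both comparisons, which share the Cx30-/- library, with 0.681% of genes.

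**Figure D1:**
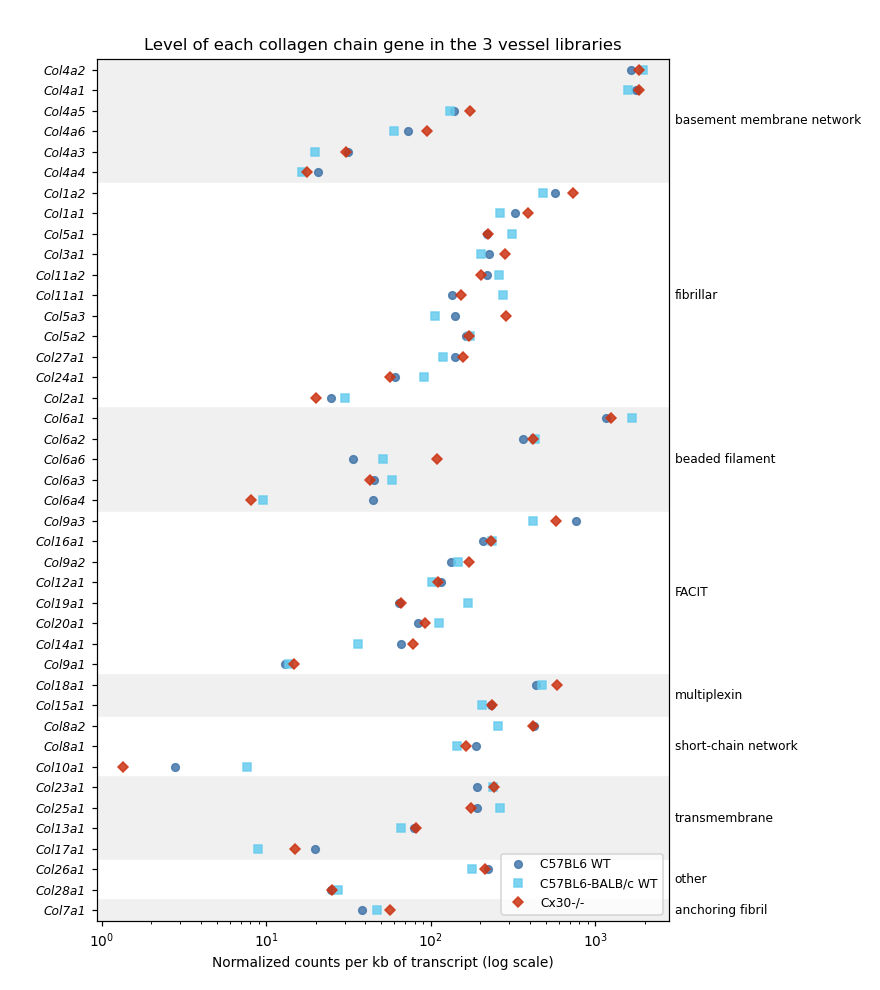
Level of each collagen chain gene (y axis, grouped by collagen class) in normalized counts per kb of transcript (x axis, log scale) in C57BL6 WT (circles), C57BL6-BALB/c WT (squares) and Cx30-/- (diamonds), 1 library each. Col4a1 and Col4a2 sit between 1574 and 1949 in the 3 libraries, and Cx30-/- stands to the right of both WT libraries for Col5a3 and Col6a6.

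By class, the 6 basement membrane network chains had the highest summed level, with 3696 per kb in C57BL6 WT, 3751 in C57BL6-BALB/c WT and 4022 in Cx30-/-. This was 33.4%, 32.8% and 33.3% of the collagen sum in the same order. The 11 fibrillar chains followed with 2220, 2310 and 2677 per kb. The share of the fibrillar class was 20.1% in C57BL6 WT, 20.2% in C57BL6-BALB/c WT and 22.1% in Cx30-/-. The 5 beaded filament chains summed to 1660, 2222 and 1837 per kb and were highest in C57BL6-BALB/c WT, with 19.4% of the collagen sum against 15.0% in C57BL6 WT and 15.2% in Cx30-/-. The 8 FACIT chains summed to 1446, 1235 and 1338 per kb.

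**Figure D2:**
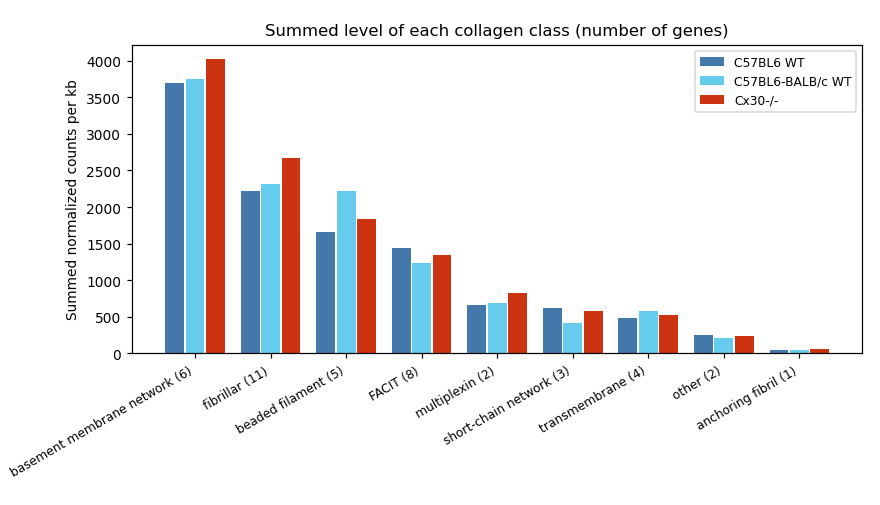
Summed normalized counts per kb (y axis, from 0) of each collagen class (x axis, number of genes in brackets) in the 3 libraries, 1 bar per library. The basement membrane network is the tallest class in each library, at 3696 to 4022, and the beaded filament class is tallest in C57BL6-BALB/c WT, at 2222.

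Type IV collagen is made from 6 chains, whose genes lie as 3 head-to-head pairs. Col4a1 and Col4a2 form the network found in nearly every basement membrane. Col4a1 reached 11760 (C57BL6 WT), 10415 (C57BL6-BALB/c WT) and 12283 (Cx30-/-) normalized counts. Col4a2 had 10675, 12574 and 11924. The partners thus differed in opposite directions between the WT libraries, with Col4a1 lower and Col4a2 higher in C57BL6-BALB/c WT. The log2 ratio of C57BL6-BALB/c WT to C57BL6 WT was -0.18 (95% interval -0.21 to -0.14) for Col4a1 and 0.24 (0.20 to 0.27) for Col4a2. Within a library, the level per kb of Col4a2 relative to Col4a1 was 0.931 (0.908 to 0.954) in C57BL6 WT, 1.24 (1.21 to 1.27) in C57BL6-BALB/c WT and 0.996 (0.97 to 1.02) in Cx30-/-.

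The other type IV chains were much lower. Col4a5 and Col4a6, whose products assemble together in the basement membrane of smooth muscle, had 905, 858 and 1132 and 485, 400 and 629 normalized counts in C57BL6 WT, C57BL6-BALB/c WT and Cx30-/-. Both were highest in Cx30-/- and lowest in C57BL6-BALB/c WT. This order was that of 0 of 8 smooth muscle, 10 of 10 endothelial, 5 of 9 pericyte and 7 of 10 fibroblast and meningeal markers. It was also that of 1 of 8 neuronal and 1 of 7 microglia and macrophage markers. The part of these cells in the 2 chains was not tested. The log2 ratio of Cx30-/- to C57BL6 WT was 0.38 (0.21 to 0.55) for Col4a6 and 0.32 for Col4a5. Relative to C57BL6-BALB/c WT, these ratios were 0.66 (0.47 to 0.85) and 0.40. On the per kb scale, the ratio of Col4a6 to Col4a5 was 0.527 (0.474 to 0.584), 0.458 (0.404 to 0.519) and 0.547 (0.494 to 0.605), with overlapping intervals. Col4a3 and Col4a4, known from the filtration barrier of the kidney, had 271, 169 and 260 and 122, 98.3 and 106 normalized counts. Col4a3 was lowest in C57BL6-BALB/c WT. Its log2 ratio of Cx30-/- to C57BL6 WT was -0.06 (-0.30 to 0.19), an interval that includes 0. Of the Col4a3 transcript, 6.6% overlaps a gene on the opposite strand, and reads were not resolved by strand.

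The head-to-head pairs differ in how closely their starts lie. On GRCm38, the annotated starts of Col4a1 and Col4a2 on chromosome 8 overlap by 22 bases, those of Col4a6 and Col4a5 on chromosome X are 1308 bases apart, and those of Col4a4 and Col4a3 on chromosome 1 are separated by 71 bases. This last interval is short enough to show whole, and it is the complete sequence between both transcripts (RefSeq, GRCm38.p6, chr1:82586850-82586920, read on the minus strand of Col4a4). It holds none of the 3 short promoter motifs described below for other chains, on either strand.

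Col4a4-Col4a3 interval: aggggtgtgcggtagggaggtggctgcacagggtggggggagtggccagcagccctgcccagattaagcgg

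Fibrillar chains form the banded fibrils of the vessel wall. Col1a1 and Col1a2, the chains of type I collagen, had 1935, 1567 and 2324 and 3040, 2561 and 3922 normalized counts in C57BL6 WT, C57BL6-BALB/c WT and Cx30-/-. Col3a1, the type III chain of distensible tissues such as arteries, had 1250, 1120 and 1573. These 3 chains were each highest in Cx30-/- and lowest in C57BL6-BALB/c WT, the same order as the summed endothelial, pericyte and fibroblast and meningeal markers. The log2 ratios of Cx30-/- were 0.26, 0.37 and 0.33 against C57BL6 WT and 0.57, 0.62 and 0.49 against C57BL6-BALB/c WT for Col1a1, Col1a2 and Col3a1. On the per kb scale, the ratio of Col1a2 to Col1a1 was 1.74, 1.81 and 1.87, and that of Col3a1 to Col1a1 was 0.688, 0.762 and 0.721, with intervals that overlapped between the 3 libraries.

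Type V and type XI chains are incorporated into fibrils and limit their width. Col5a1 had 1853, 2631 and 1871 normalized counts, and Col5a2 had 1077, 1148 and 1141. Col11a1 had 1024, 2099 and 1169, and Col11a2 had 1326, 1579 and 1217. Col5a1, Col11a1 and Col11a2 were thus highest in C57BL6-BALB/c WT, and Col11a1 was 2.05-fold higher there than in C57BL6 WT (log2 ratio 1.03, 0.93 to 1.14), or 0.91 on the log2 scale when libraries were scaled by their total count. Of the minor fibrillar chains, Col27a1 had 1063, 898 and 1203 normalized counts and Col24a1 had 432, 646 and 403. Col2a1, the main chain of cartilage, had 126, 153 and 103.

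Col5a3 encodes a further type V chain with a narrower distribution than its partners. Its normalized counts were 858 (C57BL6 WT), 646 (C57BL6-BALB/c WT) and 1747 (Cx30-/-), from 983, 598 and 1665 raw counts. The Cx30-/- library was highest, and C57BL6-BALB/c WT was lowest. This order was also that of 10 of 10 endothelial, 5 of 9 pericyte and 7 of 10 fibroblast and meningeal markers. It was also that of 1 of 8 neuronal and 1 of 7 microglia and macrophage markers, and of 0 markers of the other lists. The part of these cells in the Col5a3 level was not tested. Cx30-/- was 2.03-fold higher than C57BL6 WT (log2 ratio 1.02, 95% interval 0.91 to 1.14) and 2.70-fold higher than C57BL6-BALB/c WT (1.44, 1.30 to 1.57). The lower bound of the first interval lies under 2-fold. Between the WT libraries, the log2 ratio was -0.41 (-0.56 to -0.26).

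Within a library, the level per kb of Col5a3 relative to Col5a1 was 0.636 (0.589 to 0.687) in C57BL6 WT, 0.337 (0.308 to 0.369) in C57BL6-BALB/c WT and 1.28 (1.2 to 1.37) in Cx30-/-. Col5a3 was thus above Col5a1 in Cx30-/- and below it in both WT libraries. Reads covered 85.7%, 80.8% and 90.6% of the 6119 bases of the Col5a3 transcript. A second Col5a3 row, a retained-intron transcript of 3927 bases, gave log2 ratios of 1.02 and 1.23 against C57BL6 WT and C57BL6-BALB/c WT. Col5a3 lies on chromosome 9, 20770050 to 20815067, minus strand (GRCm38). Of 30 genes within 500 kb with at least 50 normalized counts, 1 was 2-fold different, Icam5, a neuronal adhesion molecule, with a log2 ratio of -1.06 against C57BL6-BALB/c WT. Over all genes, 4.73% of 14891 were at least 2-fold lower in that comparison.

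Beaded filament chains of type VI link the basement membrane to the surrounding matrix. Col6a1 had 4803, 6863 and 5153 normalized counts, Col6a2 had 1445, 1695 and 1660, and Col6a3 had 404, 522 and 383. Col6a1 was highest in C57BL6-BALB/c WT, with a log2 ratio of 0.52 (0.46 to 0.57) to C57BL6 WT and of -0.41 (-0.47 to -0.36) for Cx30-/- against it. The chains were present at unequal levels, with 0.312, 0.256 and 0.334 of Col6a2 and 0.0383, 0.0346 and 0.0338 of Col6a3 per Col6a1 on the per kb scale.

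Col6a6 encodes an alternative chain that can take the place of Col6a3. Its normalized counts were 159 (C57BL6 WT), 242 (C57BL6-BALB/c WT) and 516 (Cx30-/-), from 182, 224 and 492 raw counts. The Cx30-/- library was again highest, but here C57BL6 WT was lowest. This order was also that of 3 of 8 smooth muscle, 2 of 10 fibroblast and meningeal, 1 of 7 astrocyte and 1 of 7 microglia and macrophage markers, and of 0 markers of the other lists. Cx30-/- was 3.25-fold higher than C57BL6 WT (log2 ratio 1.70, 1.45 to 1.95) and 2.13-fold higher than C57BL6-BALB/c WT (1.09, 0.86 to 1.33), and the WT libraries differed by 0.61 (0.32 to 0.90). Relative to Col6a3, the level per kb of Col6a6 was 0.749 (0.627 to 0.891), 0.883 (0.75 to 1.04) and 2.57 (2.24 to 2.95). Coverage of its transcript was 74.7%, 75.8% and 90.5%, and the second Col6a6 row gave log2 ratios of 1.63 and 1.08.

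Col6a4, a further alternative chain, stood at 328 (C57BL6 WT), 70.2 (C57BL6-BALB/c WT) and 59.8 (Cx30-/-) normalized counts, from 376, 65 and 57 raw counts. It was high in C57BL6 WT and low in the other 2 libraries. The log2 ratio of C57BL6-BALB/c WT to C57BL6 WT was -2.23 (-2.63 to -1.84), and that of Cx30-/- to C57BL6 WT was -2.46 (-2.89 to -2.05), while Cx30-/- and C57BL6-BALB/c WT differed by -0.23 (-0.77 to 0.30), an interval that includes 0. Reads covered 76.4% of the Col6a4 transcript in C57BL6 WT, 33.7% in C57BL6-BALB/c WT and 25.6% in Cx30-/-. Col6a6 (chromosome 9, 105687809 to 105828160) and Col6a4 (chromosome 9, 105989454 to 106096783) lie on the same strand in 1 cluster. Of 16 genes within 500 kb of Col6a4 with at least 50 normalized counts, Col6a6 and Rpl29 were past 2-fold in some comparison. Rpl29 encodes a ribosomal protein, a kind of gene with near-identical copies elsewhere, so its counts are uncertain. It had 87.3, 40.0 and 24.1 normalized counts and, like Col6a4, was highest in C57BL6 WT, with log2 ratios to it of -1.13 for C57BL6-BALB/c WT and -1.86 for Cx30-/-. Around Col6a6, 1 of 11 such genes was past 2-fold, Col6a4. Over all genes, between 1.26% and 4.73% were past 2-fold per comparison and direction, so these few neighbours cannot be read as a local feature.

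The stretches before the starts of Col5a3 and Col6a6, the chains past 2-fold against both WT libraries, are given as read from RefSeq (GRCm38.p6), 5' to 3' on the minus strand on which both genes lie, and without annotated exons. Capitals mark the letters CCAAT and GGGCGG (with CCGCCC as its other strand), short motifs bound by the factors NF-Y and Sp1. Both stretches hold the GGGCGG motif more than once, and the Col5a3 stretch also holds CCAAT.

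Col5a3, chr9:20815068-20815317, minus strand: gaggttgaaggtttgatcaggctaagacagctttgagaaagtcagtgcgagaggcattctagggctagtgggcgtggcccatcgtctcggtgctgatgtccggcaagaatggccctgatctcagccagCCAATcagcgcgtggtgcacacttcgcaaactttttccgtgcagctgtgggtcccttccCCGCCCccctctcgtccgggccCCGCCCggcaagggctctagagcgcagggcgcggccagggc

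Col6a6, chr9:105828161-105828335, minus strand: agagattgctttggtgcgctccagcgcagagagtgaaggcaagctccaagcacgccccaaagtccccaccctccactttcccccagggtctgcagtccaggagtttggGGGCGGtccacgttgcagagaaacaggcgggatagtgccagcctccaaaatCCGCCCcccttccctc

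Such motifs were common. RefSeq windows from 250 bases before to 50 after a start were at hand for 34 of the 42 collagen genes. GGGCGG on either strand was in a window of 21 of these 34 genes, against 35.7% of 32851 promoters. CCAAT or ATTGG was in 13 of 34 (37.4% of promoters) and TATAAA or TTTATA in 5 of 34 (13.6%). The median GC content was 59.9% in the collagen windows and 52.7% over the promoters. A match to these letters is a description and does not show binding.

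FACIT collagens decorate fibril surfaces. Col9a3, a type IX chain, had the highest level of the class, with 2171 (C57BL6 WT), 1188 (C57BL6-BALB/c WT) and 1633 (Cx30-/-) normalized counts. Its partner Col9a2 had 389, 431 and 501, and Col9a1 had 49.8, 52.9 and 56.6. Col9a3 was highest in C57BL6 WT and lowest in C57BL6-BALB/c WT, the order of the choroid plexus sum and of the microglia and macrophage sum, and its partners were highest in Cx30-/-. The level per kb of Col9a2 relative to Col9a3 was 0.174 (0.157 to 0.193), 0.353 (0.314 to 0.396) and 0.299 (0.269 to 0.331). The Col9a3 transcript shares 230 bases (8.1%) with Tcfl5 on the opposite strand. Col16a1 had 1070, 1216 and 1184 normalized counts, Col12a1 had 1325, 1175 and 1275, and Col20a1 had 352, 472 and 389. For these 3 chains the log2 ratios of Cx30-/- lay between -0.28 and 0.15.

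Col14a1, which binds fibrils through the proteoglycan decorin, stood at 424 (C57BL6 WT), 234 (C57BL6-BALB/c WT) and 503 (Cx30-/-) normalized counts. It was low in C57BL6-BALB/c WT, and Cx30-/- was 2.14-fold higher than that library (95% interval 0.87 to 1.34 on the log2 scale) but 1.18-fold higher than C57BL6 WT (log2 ratio 0.24, 0.06 to 0.43). Col19a1, known from muscle and from neurons, had 348, 917 and 357 normalized counts and was high in C57BL6-BALB/c WT alone. Its log2 ratio was -1.36 (-1.55 to -1.18) for Cx30-/- against C57BL6-BALB/c WT and 1.40 (1.22 to 1.57) for C57BL6-BALB/c WT against C57BL6 WT. The row used for Col19a1 is a processed transcript, and its 2 protein-coding rows gave -1.72 and -2.01 in the comparison of Cx30-/- with C57BL6-BALB/c WT. Of 8 neuronal and 8 smooth muscle markers, 5 of each were also highest in C57BL6-BALB/c WT. So were 2 of 7 astrocyte, 1 of 9 pericyte and 1 of 6 oligodendrocyte markers, and 0 markers of the other lists. The median log2 ratio to C57BL6 WT was 0.20 for the neuronal and 0.53 for the smooth muscle markers. The part of these cells in the Col19a1 level was not tested.

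The multiplexins Col18a1 and Col15a1 sit in the vascular basement membrane zone, and Col18a1 is the precursor of endostatin. Col18a1 stood at 2752 (C57BL6 WT), 3022 (C57BL6-BALB/c WT) and 3736 (Cx30-/-) normalized counts. It was highest in Cx30-/-, with log2 ratios of 0.44 (0.37 to 0.51) and 0.31 (0.23 to 0.38) to the WT libraries in this order. Col15a1 had 1196, 1059 and 1221. The level per kb of Col18a1 relative to Col15a1 was 1.88 (1.76 to 2), 2.33 (2.17 to 2.51) and 2.5 (2.34 to 2.67).

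The short-chain network chains Col8a1 and Col8a2 form the hexagonal lattice of type VIII collagen, known from the subendothelial matrix and from the cornea. Col8a2 had 1828, 1118 and 1803 normalized counts and Col8a1 had 966, 741 and 842. Both were lowest in C57BL6-BALB/c WT, where Col8a2 was 0.61 of its C57BL6 WT value. Col7a1, the chain of the anchoring fibrils under the epidermis, had 353, 435 and 527 normalized counts and was highest in Cx30-/-.

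Transmembrane collagens span the plasma membrane and can be shed. Col23a1 had 1074, 1356 and 1381 normalized counts, Col25a1, a mostly neuronal chain found in amyloid plaques, had 1277, 1779 and 1179, and Col13a1 had 251, 210 and 256. Col25a1 was highest in C57BL6-BALB/c WT, as were 5 of 8 neuronal and 5 of 8 smooth muscle markers. So were 2 of 7 astrocyte, 1 of 9 pericyte and 1 of 6 oligodendrocyte markers, and the part of these cells was not tested. Col17a1, a hemidesmosome component, had 111, 49.7 and 83.9 normalized counts and was lowest in C57BL6-BALB/c WT, with a log2 ratio of -1.16 (-1.68 to -0.66) to C57BL6 WT that rests on 46 and 127 raw counts. Of the chains outside these classes, Col26a1 had 617, 499 and 595 normalized counts and Col28a1 had 104, 115 and 106.

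**Figure D3:**
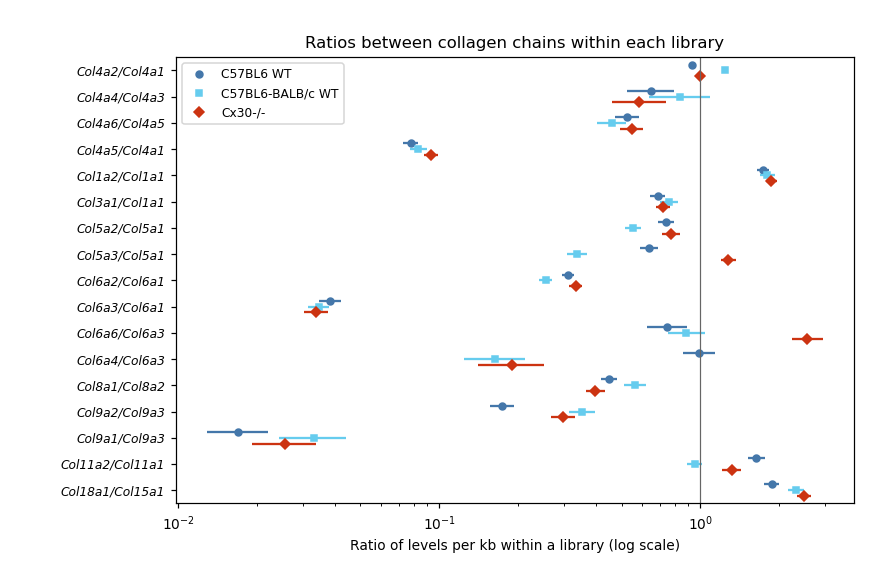
Ratio of the levels per kb of chains of the same or a closely related collagen type (y axis) within each library (x axis, log scale), with 95% intervals of the counts. Cx30-/- (diamonds) lies to the right of both WT libraries for Col5a3/Col5a1, at 1.28, and for Col6a6/Col6a3, at 2.57, while Col1a2/Col1a1 runs from 1.74 to 1.87.

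Counted over the 41 chains that reached 50 normalized counts, Cx30-/- against C57BL6 WT had 2 chains past 2-fold upward, Col5a3 and Col6a6, and 1 downward, Col6a4. This was 4.88% and 2.44% of the chains, where the background over 14776 genes was 1.42% (higher) and 1.26% (lower), and the difference from it rests on 3 genes. Against C57BL6-BALB/c WT, Cx30-/- had 3 chains higher, Col14a1, Col5a3 and Col6a6, and 1 lower, Col19a1. This was 7.32% and 2.44%, with 3.96% and 4.73% of 14891 genes. Between the WT libraries, C57BL6-BALB/c WT had 2 chains past 2-fold upward, Col11a1 and Col19a1 (background 1.41% of 14791 genes), and 2 downward, Col17a1 and Col6a4 (background 2.02%). The WT libraries thus differed past 2-fold in 4 chains, as many as Cx30-/- and C57BL6-BALB/c WT did. Against both WT libraries, 2 of 41 chains were higher and 0 lower, with 0.742% and 0.681% of 14688 genes.

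The median log2 ratio of the 41 chains was 0.08 for Cx30-/- against C57BL6 WT, 0.19 for Cx30-/- against C57BL6-BALB/c WT and 0.09 for C57BL6-BALB/c WT against C57BL6 WT, with -0.00, 0.00 and 0.00 over all genes that reached 50 normalized counts. Above 0 were 27 of 41, 25 of 41 and 21 of 41 chains, with 7279 of 14776, 7484 of 14891 and 7395 of 14791 genes. Scaling by the total count gave 27, 30 and 19 chains, and genes above 0 were not counted at that scaling. Among classes, the 6 type IV chains had medians of 0.11 and 0.32 for Cx30-/- against C57BL6 WT and C57BL6-BALB/c WT, and the 11 fibrillar chains had 0.18 and -0.01. Of the 6 type IV chains, 0 were past 2-fold in each of the 3 comparisons, which is near the background of between 1.26% and 4.73% of genes per direction.

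**Figure D4:**
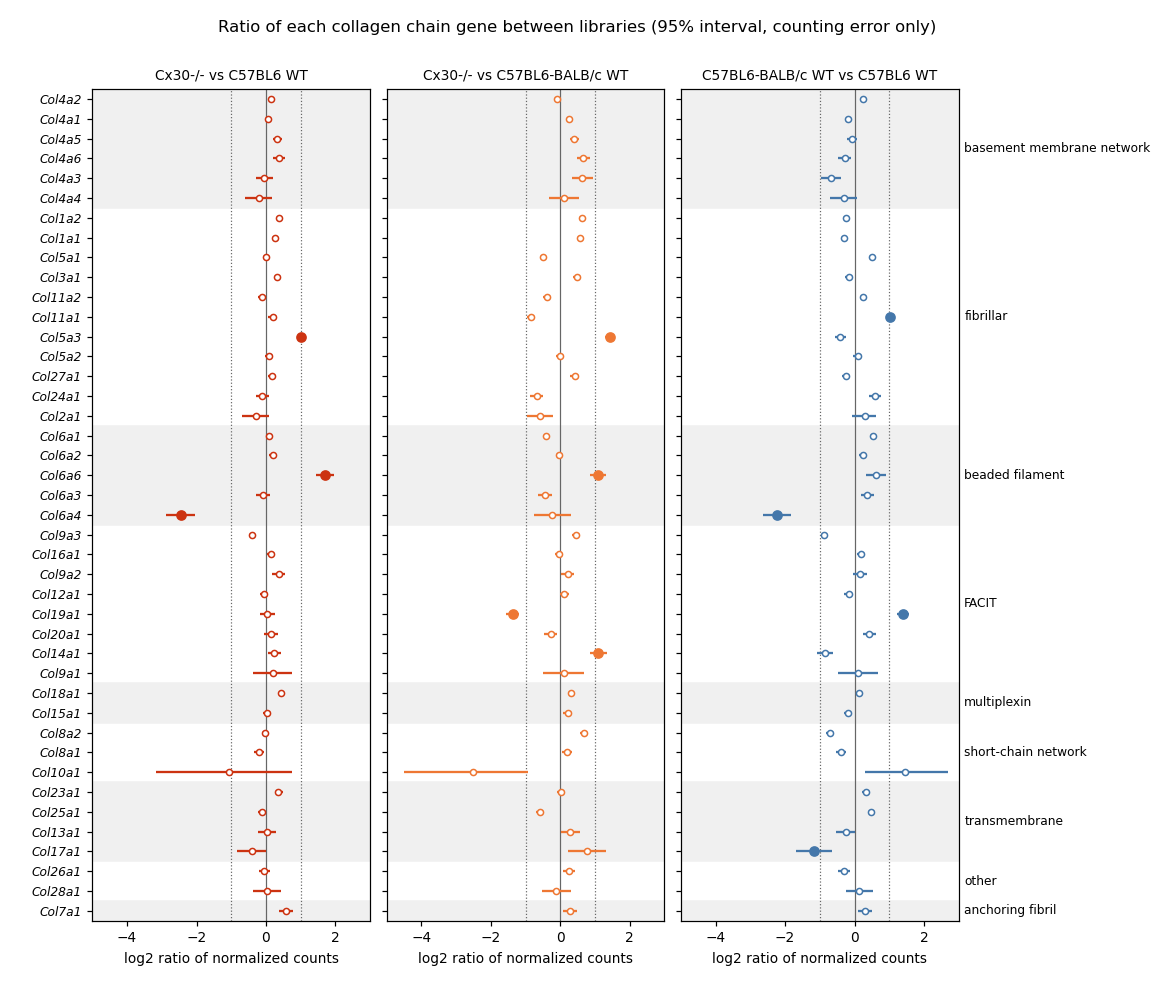
Log2 ratio of normalized counts (x axis) of each collagen chain gene (y axis, by class) in the 3 comparisons of libraries, with 95% intervals for counting error. Filled points are chains with at least 50 normalized counts and at least 2-fold (dotted lines) difference: 3 in the left panel, 4 in the middle panel and 4 in the right panel.

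The test of genotype took both WT libraries as 1 group, although Col6a4 differed between them by a log2 ratio of -2.23. For Cx30-/- against C57BL6-BALB/c WT, the Col6a4 ratio was -0.23 (-0.77 to 0.30). Across 17576 genes, edgeR's quasi-likelihood test could then be run, but its spread comes from the difference between the WT libraries, background included. It called 9 genes at an adjusted p under 0.05 (0.0512%), and 0 of the 42 collagen chains. At an unadjusted p under 0.05 it called 1528 genes (8.69%) and 3 chains, Col5a3, Col6a6 and Col6a4. By edgeR, the log2 fold change was 1.22 for Col5a3 (adjusted p = 0.161), 1.37 for Col6a6 (adjusted p = 0.171) and -1.74 for Col6a4 (adjusted p = 0.353). Without the filter on low counts, edgeR called these 3 of 42 chains, with adjusted p = 0.00895, 0.00987 and 0.0177. At that setting it called 135 of 22471 genes. With library sizes in place of TMM factors, edgeR called Col5a3 and Col6a6, with adjusted p = 0.00989 and 0.0172, among 96 of 17576 genes. With the sum of all rows of a gene, edgeR called 0 chains, and the smallest adjusted p was 0.109 (Col5a3). DESeq2 called 0 chains after adjustment, with adjusted p = 0.249, 0.362 and 0.649 for Col5a3, Col6a6 and Col6a4, and the same 3 at an unadjusted p under 0.05.

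The enzymes that hydroxylate, fold and chaperone collagen chains in the endoplasmic reticulum were measured alongside the chains. Of 21 such genes, 0 were past 2-fold in each comparison, near the background of between 1.26% and 4.73% per direction, and the medians were -0.00 for Cx30-/- against C57BL6 WT and -0.02 against C57BL6-BALB/c WT. Ppib, the prolyl isomerase with the highest level per kb of the list, had 3870, 4345 and 3851 normalized counts. Serpinh1, the collagen chaperone HSP47, had 6705, 4885 and 5973 and was lowest in C57BL6-BALB/c WT.

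Of 14 genes of procollagen processing and crosslinking, 12 reached 50 normalized counts. Adamts14, a procollagen N-proteinase, was at least 2-fold higher in Cx30-/- than in C57BL6 WT, with 265, 381 and 608 normalized counts in C57BL6 WT, C57BL6-BALB/c WT and Cx30-/-. Its relative Adamts3 had 310, 698 and 228 and Pxdn, the peroxidasin that crosslinks type IV collagen, had 6093, 9256 and 4597. Both were highest in C57BL6-BALB/c WT and at least 2-fold lower in Cx30-/- than there, with log2 ratios of -1.62 (-1.84 to -1.39) for Adamts3 and -1.01 (-1.06 to -0.96) for Pxdn. Bmp1, the C-proteinase, had 3744, 5034 and 3540. In Cx30-/-, 1 of 12 genes was thus higher against C57BL6 WT and 2 of 12 were lower against C57BL6-BALB/c WT. Over all genes, these shares were 1.42% and 4.73%. No gene of the list was at least 2-fold different in the same direction against both WT libraries.

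Collagen receptors were measured for 10 genes, of which 8 reached 50 normalized counts and 0 of these were past 2-fold, again near the background. Itgb1, the integrin beta chain shared by the collagen-binding integrins, had 9705, 9169 and 12470 normalized counts and was highest in Cx30-/-, and the receptor kinase Ddr1 had 4635, 4180 and 4877. Of 16 other basement membrane components, Sparc, a collagen-binding matrix protein, had 20962, 15202 and 22589 and the proteoglycan Agrn had 18775, 20937 and 21294. The median log2 ratio of this list was 0.18 against C57BL6 WT and 0.50 against C57BL6-BALB/c WT. In the same order, the endothelial markers had 0.20 and 0.86 and the pericyte markers 0.13 and 0.65. The fibroblast and meningeal markers had 0.31 and 0.52 and the smooth muscle markers 0.32 and -0.12.

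Small leucine-rich proteoglycans bind fibrils and set their spacing. The 10 genes of this list had medians of 0.40 and 0.32 over those that reached 50 normalized counts, and Kera had 0 counts in the 3 libraries, which allows up to 3 counts in each. Bgn had 6209, 5179 and 6773 normalized counts and Prelp had 5134, 5140 and 6408, and both were highest in Cx30-/-. Omd was at least 2-fold higher in Cx30-/- than in C57BL6 WT (122, 190 and 258 normalized counts, log2 ratio 1.08, 0.77 to 1.39). This was 1 of 8 genes that reached 50 normalized counts, with 1.42% over all genes. Epyc was at least 2-fold lower in Cx30-/- than in C57BL6-BALB/c WT (33.2, 64.8 and 23.1), from 22 and 60 raw counts. This was 1 of 9 genes, with 4.73% over all genes. Dcn, Ogn, Lum and Fmod stand both in this list and among the fibroblast and meningeal markers, whose medians were 0.31 and 0.52.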

How the data were processed

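Brain vessel libraries (1 per group, vessels of 3 mice pooled) were grouped by the sample labels. Per the study's methods, the authors filtered 50-base single reads with Eoulsan 1.1.6, mapped what was left by Bowtie 0.12.7, dropped multi-mapped reads and counted alignments overlapping exons. Base calling with CASAVA 1.8.2 is named in the submitters' processing notes. The authors deposited, for 82813 Ensembl transcripts, raw counts without normalization, the same counts as a fraction of a library total, the transcript length and the number of bases without a read. A read on an exon shared by transcripts counted for each, and strand was not used. The build of the deposited positions is unclear (the methods name mm10), so coordinates came from GENCODE M21 on GRCm38 through the transcript identifiers, which named 69375 rows (83.8%) holding 83.4% to 84.1% of the counts. Unnamed rows were left out of the tests.

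A gene was represented by its most counted row. Depth was scaled by size factors (median of ratios) of 1.1452, 0.9258 and 0.9532 for C57BL6 WT, C57BL6-BALB/c WT and Cx30-/-. A 2-fold difference was counted where either library of the comparison had 50 normalized counts, following the thresholds of the study, with no pseudocount. Intervals are exact conditional binomial (Clopper-Pearson, 95%, scipy 1.17.1) and cover counting error only, since there was 1 library per group. Duplicate reads are not independent molecules, so the intervals may be too narrow even for counting error. The test across genes was the quasi-likelihood test of edgeR 4.0.16 (R 4.3.3) after filterByExpr and TMM, with Benjamini-Hochberg adjustment over the genes tested and DESeq2 1.42.0 as an alternative. The scripts were tested on simulated data. The p-values set the difference of the Cx30-/- library against a spread taken from both WT libraries, which differ in background. No spread within Cx30-/- could be had.

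Every chain with 50 normalized counts in at least 1 library is named. Of the other lists, the 2 genes highest per kb are named, and Gjb6. Adamts14, Adamts3, Omd, Epyc, Kera, Icam5, Rpl29, Tcfl5, Dcn, Ogn, Lum, Fmod, Cldn5 and Slco1a4 fall partly outside this rule and were named after their values were seen. The members and lists were chosen with earlier results of these data known. Alternatives were other scalings, rows per gene, count minimums, a pseudocount, a 1.5-fold threshold and other test settings.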

Additional observations from a re-analysis of the deposited data

How the results depend on the processing

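With 1 library per group, differences between groups have no replicate error, and no library could be left out. No paired analysis was possible because each group has 1 library. The count of chains at least 2-fold different against both WT libraries was 2 under each alternative except the removal of the count minimum, which gave 3 by adding Col10a1. A 1.5-fold threshold gave 12 chains for Cx30-/- against C57BL6-BALB/c WT (8 higher, 4 lower) and 9 between the WT libraries (3 higher, 6 lower). The share over all genes was not counted at 1.5-fold, so these counts cannot be read as particular to collagen chains. In the test of genotype (0 chains and 9 genes), 3 chains and 135 of 22471 genes passed without the filter on low counts. With library sizes alone, 2 chains and 96 of 17576 genes passed. The cause of these changes was not tested. The sum of all rows gave 0 chains and 14 genes, and DESeq2 0 chains and 7 genes. Share of the basement membrane chains in the summed level (C57BL6 WT, C57BL6-BALB/c WT, Cx30-/-) was 25.9%, 25.4% and 25.9% with the sum of all rows, 34.1%, 33.5% and 34.0% with the longest row, and 39.1%, 37.7% and 38.5% without division by length. Of 738 log2 ratios of chains, 11 changed sign, none of them a 2-fold difference, and 7 of the 11 came from scaling by the total count, which moved ratios by between -0.12 and 0.13. Col11a1 fell under 2-fold between the WT libraries with that scaling.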
